A study of Mus musculus with 14 samples.

Results

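The 6-Mb stretch of mouse chromosome 11 from 50 to 56 Mb (mm10) holds Lyrm7 and Tnip1, and was examined gene by gene in the hippocampus of lupus-prone and control mice with and without kinase-active IRAK4. Its members are the 143 genes that lie wholly inside the stretch and had at least 10 counts summed over the 14 libraries, out of 178 annotated there and of 38070 genes tested across the genome. The remaining 35 annotated genes fell below that sum. Of the 143 members, 92 code for protein, 15 are processed pseudogenes, 14 are antisense genes and 7 are miRNA genes, and 79 had a mean of at least 0.5 CPM (counts scaled to the effective library size). The stretch was picked because Lyrm7 and Tnip1 differed between IRAK4-mutant and IRAK4-intact mice in both backgrounds, so fold changes and calls in the mutant comparisons are given below as a description, and no p-value of a single member is read as evidence.

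IRAK4 is the kinase that relays signals from Toll-like and IL-1 receptors through the Myddosome to NF-kB. Tnip1 encodes ABIN1, a ubiquitin-binding protein that works with A20 to restrain NF-kB, and its human counterpart is a known lupus susceptibility locus. Lyrm7 encodes a mitochondrial chaperone that hands the Rieske iron-sulphur protein to respiratory complex III. The same stretch carries the type 2 cytokine cluster with Il4, Il5 and Il13, the transcription factor gene Irf1 and the OCTN carnitine and organic cation transporter genes. Irak4 itself lies on chromosome 15 and Fas on chromosome 19.

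Hippocampi were taken after perfusion from mice 10 months old, in 4 groups. MRL mice (B6.MRL-Fas lpr/J) carry the lpr allele of the death receptor gene Fas and served as the lupus-prone group with 4 libraries, and MRL-IRAK4-KD mice, also 4, carry lpr together with kinase-dead IRAK4. By their group names C57BL/6 mice, with 3 libraries, carry neither, and IRAK4-KD mice, with 3, carry kinase-dead IRAK4 alone. All 4 groups share the C57BL/6 background, but the C57BL/6 mice were purchased while the other 3 groups came from a collaborating laboratory, so that source and genotype cannot be told apart between C57BL/6 and IRAK4-KD mice. Each library was taken as 1 mouse. The labels do not say whether mice of a group shared a litter or cage, and p-values here measure the spread between these samples.

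The libraries held between 279941472 and 572398312 counts. The paper names a number of reads per sample well below these counts, so a count here may not stand for a single read. Hippocampal neuron markers were detected in every library, at 1110 to 2770 CPM summed over 12 genes. Irak4 had 1.54 to 2.72 CPM over all mice, and since the mutation inactivates the kinase, its level does not check the labels. The full Fas transcript had 0 counts in all 8 lpr libraries and 345 to 584 in the C57BL/6 mice, but the library labelled IRAK4-KD replicate 3 had 0 as well, against 360 and 386 in the other IRAK4-KD mice. Another transcript, Fas-204, had 514 counts in that library and 268 to 964 in the lpr libraries, against 0 to 7 in C57BL/6 and 5 and 7 in the other IRAK4-KD mice. By its Fas transcripts this library was thus like the lpr libraries. It was kept in its labelled group, and whether the label is right was not tested. MRL-IRAK4-KD replicate 4 stood apart from all others, with a score of 123.8 on the first principal component against -21.2 to 5.15 elsewhere and 8500 CPM of choroid plexus markers against 241 to 2360 in MRL mice. Values without these libraries are given for the members that stood out and for the gene lists they moved.

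The RefSeq promoter windows (GRCm38.p6, 250 bases before to 50 after each start) are shown first for Lyrm7 and Tnip1, the 2 members the stretch is named for, and for A430108G06Rik and Slc22a4, which lay in the opposite direction. Letters in capitals mark matches to the motifs searched on both strands: an NF-kB-like site (GGGA, any 4 bases, then CC), a GAS-type site (TTCNNNGAA), a GC box (GGGCGG), the so-called E box (CACGTG), the TATA box (TATAAA) and the motif known as the CCAAT box.
Lyrm7, minus strand, chr11:54860548-54860847: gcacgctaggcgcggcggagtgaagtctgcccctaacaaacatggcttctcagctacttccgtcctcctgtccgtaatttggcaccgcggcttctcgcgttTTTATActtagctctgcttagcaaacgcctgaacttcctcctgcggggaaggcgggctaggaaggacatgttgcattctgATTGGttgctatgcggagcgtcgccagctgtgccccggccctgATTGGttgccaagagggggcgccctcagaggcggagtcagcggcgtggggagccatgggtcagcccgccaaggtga
Tnip1, minus strand, chr11:54962891-54963190: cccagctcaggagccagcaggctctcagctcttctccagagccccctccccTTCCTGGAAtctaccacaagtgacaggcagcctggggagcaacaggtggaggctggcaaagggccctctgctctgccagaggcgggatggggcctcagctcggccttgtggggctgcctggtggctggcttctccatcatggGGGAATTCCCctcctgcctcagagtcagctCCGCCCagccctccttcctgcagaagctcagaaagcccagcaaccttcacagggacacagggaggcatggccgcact
A430108G06Rik, minus strand, chr11:53567264-53567563: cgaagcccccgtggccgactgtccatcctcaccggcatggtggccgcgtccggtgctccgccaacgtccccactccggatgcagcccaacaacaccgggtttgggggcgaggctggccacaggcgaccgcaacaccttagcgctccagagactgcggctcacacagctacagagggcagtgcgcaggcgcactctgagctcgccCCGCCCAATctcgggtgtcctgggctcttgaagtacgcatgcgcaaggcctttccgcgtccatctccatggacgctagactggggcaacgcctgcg
Slc22a4, minus strand, chr11:54028055-54028354: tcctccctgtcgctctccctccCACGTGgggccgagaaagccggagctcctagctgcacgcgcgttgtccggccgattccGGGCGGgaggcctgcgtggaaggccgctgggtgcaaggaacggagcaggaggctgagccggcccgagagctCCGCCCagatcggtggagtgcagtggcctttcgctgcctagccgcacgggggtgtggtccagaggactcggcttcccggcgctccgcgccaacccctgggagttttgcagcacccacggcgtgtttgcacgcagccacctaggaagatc

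The Tnip1 window held an NF-kB-like match that reads the same way on both strands, starting at position -57 from the RefSeq start, and a GAS-type match at -199. Such NF-kB-like letters occur in 20.7% of all 32851 RefSeq promoter windows, and GAS-type letters in 8.30%. The Lyrm7 window held neither. It had 2 CCAAT matches, at -69 and -26, and a TATAAA match at -149. The coding transcript Lyrm7-205, which took most of the gene's counts, starts at 54860912 on the minus strand. The Lyrm7 window lies wholly inside that transcript's span, so these positions are upstream of the RefSeq start alone. CCAAT letters occur in 37.4% of windows and TATAAA in 13.6%. The windows of Lyrm7 and A430108G06Rik held 22 and 28 CpG pairs, whereas that of Tnip1 held 4. A GC box match was found for Tnip1, A430108G06Rik and Slc22a4 (35.7% of windows), and the Slc22a4 window also held CACGTG (7.15%). In the A430108G06Rik window a CCAAT match overlaps the GC box match. Also searched, without a match in these 4 windows, were the interferon response element (3.44% of windows), the ETS site CCGGAAG (8.86%), the full CRE (1.79%) and the NRF1 site (0.971%). Of the 143 members, 72 have an entry in this RefSeq table. A match describes letters in the window and no binding was measured.

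Lyrm7 (ENSMUSG00000020268.14, minus strand, 54826866 to 54860916) was near 14 CPM in every IRAK4-intact mouse. The 4 MRL mice had 13.7, 14.7, 12.9 and 13 CPM, and the 4 MRL-IRAK4-KD mice 23.9, 29.9, 31.3 and 26.2 CPM. The 3 C57BL/6 mice had 14, 14.4 and 14.2 CPM, and the 3 IRAK4-KD mice 30.4, 29.8 and 31.7 CPM. Every mutant mouse was above every intact mouse, and the groups did not overlap in either background. The difference was 2.05-fold in the lpr background (log2 fold change 1.04, standard error 0.10) and 2.15-fold without lpr (1.11, standard error 0.11). Leaving out each mouse in turn kept the log2 fold change between 0.96 and 1.10 with lpr and between 1.08 and 1.13 without it. Without IRAK4-KD replicate 3 the value in the non-lpr background was 1.08, and without MRL-IRAK4-KD replicate 4 that in the lpr background was 1.06.

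Tnip1 (ENSMUSG00000020400.17, minus strand, 54910785 to 54962917) starts 102.0 kb from Lyrm7. It had 17.9, 18.5, 17.6 and 18.6 CPM in MRL mice and 24.7, 31.2, 30.9 and 27.4 CPM in MRL-IRAK4-KD mice. C57BL/6 mice had 17.2, 20.1 and 19.6 CPM, and IRAK4-KD mice 30.8, 30.4 and 29.4 CPM. As for Lyrm7, no mutant mouse overlapped an intact mouse. The fold change was 1.57 with lpr (log2 0.65, standard error 0.09) and 1.59 without (log2 0.67, standard error 0.11). Without IRAK4-KD replicate 3 the log2 fold change in the non-lpr background was 0.69 and was no longer called. Per kb of exon, Tnip1 averaged 6.75 CPM and Lyrm7 4.24 CPM over all mice, both well under Hint1 at 99.1 CPM, a nucleotide hydrolase gene that starts 5.47 kb from Lyrm7.

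**Figure D1:**
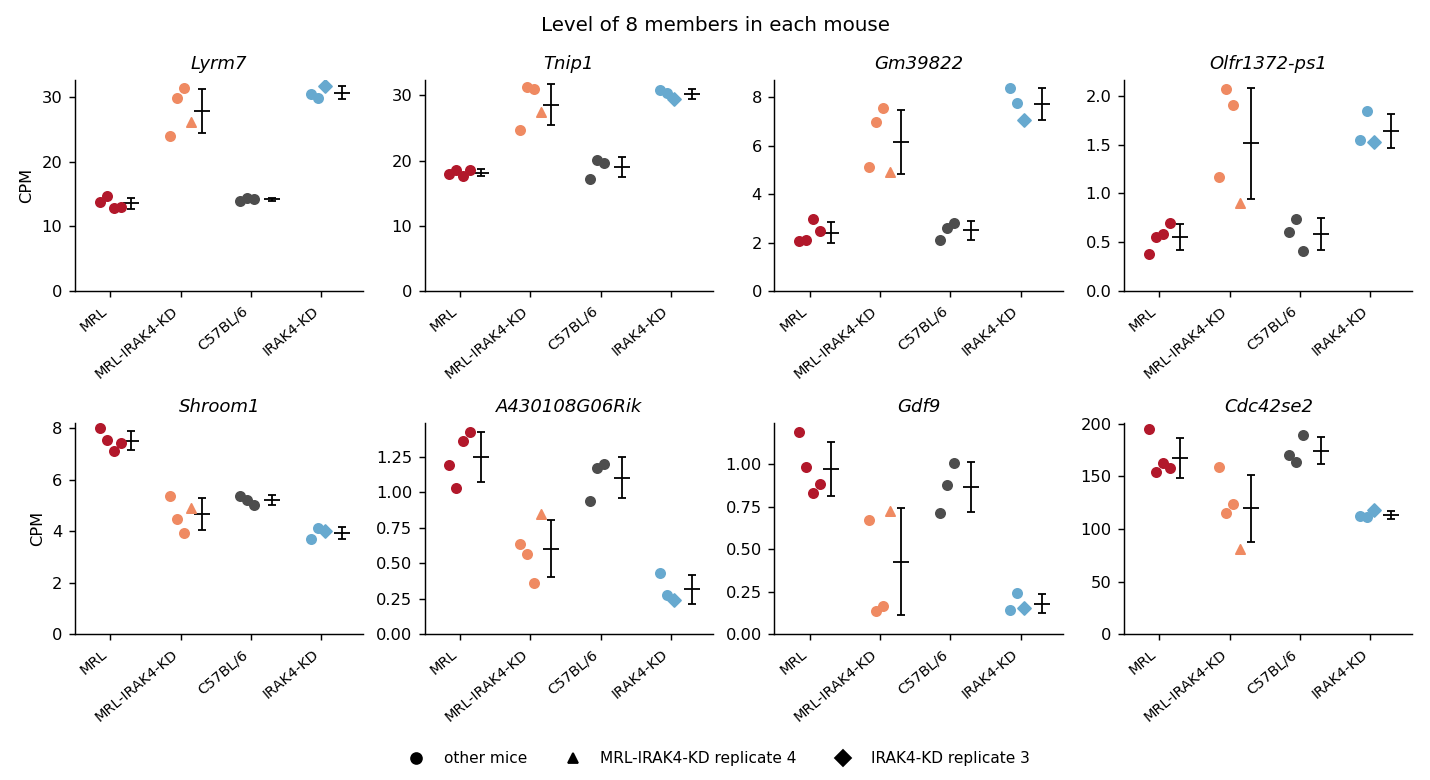
Level in CPM (vertical axes, from 0) of 8 members in each mouse by group (horizontal axes). Points are single mice, with IRAK4-KD replicate 3 as a diamond and MRL-IRAK4-KD replicate 4 as a triangle, and the bar beside each group is its mean ± SD (n = 4, 4, 3 and 3). Lyrm7, Tnip1, Gm39822 and Olfr1372-ps1 are higher and Shroom1, A430108G06Rik and Gdf9 lower in every mutant mouse than in the control mice of the same background, while Cdc42se2 overlaps between MRL and MRL-IRAK4-KD mice.

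The counted transcripts of both genes were assigned by the authors' assembler, so their shares are estimates. The coding transcript Lyrm7-205 took 89.3% of the gene's counts in MRL, 92.1% in MRL-IRAK4-KD, 85.9% in C57BL/6 and 91.3% in IRAK4-KD mice. Most of the rest was Lyrm7-204, which is annotated as a target of nonsense-mediated decay, at 6.16% to 11%. Tnip1 was split between the coding transcripts Tnip1-202, with 55.0% to 66.9% of the counts over the 4 groups, and Tnip1-206, with 32.1% to 44.7%. Tnip1-201 had counts in a single mouse, MRL replicate 4, at 4 CPM and 21.4% of that mouse's Tnip1 counts, and 0 counts in the others. The deposited gene counts do not say whether strand was used. Lyrm7 shares 170 bases with the antisense-oriented gene Gm25426 and Tnip1 shares 454 bases with Gm12230, whose highest level in any mouse was 0.114 CPM.

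Over the whole stretch, 4 members passed an edgeR adjusted p of 0.05 in each mutant comparison. In the lpr background they were Lyrm7, Tnip1, Gm39822 and Shroom1, beside 0.0972% of all 38070 genes (37 genes). Without lpr they were Lyrm7, Tnip1, Gm39822 and A430108G06Rik, beside 0.147% of all genes (56 genes). Lyrm7, Tnip1 and Gm39822 were called in both, as were 0.0552% of all genes, and 5 members in at least one. DESeq2 called 7 and 8 members, beside 1.30% and 0.576% of all genes, and limma-voom with quality weights 11 and 9, beside 0.559% and 0.381%. Since the stretch was chosen on these comparisons, the counts describe it and support nothing further. Lyrm7 was called in all 14 fits that left out 1 mouse in both comparisons, and so was Gm39822. Tnip1 was called in 9 of those 14 with lpr, being lost without MRL replicate 2, 3 or 4 or MRL-IRAK4-KD replicate 2 or 3. It was called in 8 without lpr, where leaving out any C57BL/6 or IRAK4-KD mouse ended the call. Shroom1 was called in 2 with lpr, and A430108G06Rik in 3 without. Without IRAK4-KD replicate 3, 2 members were called in the non-lpr comparison, Lyrm7 and Gm39822. Without MRL-IRAK4-KD replicate 4 the calls numbered 5 with lpr and 8 without, Olfr1372-ps1, Kif3a, Slc22a4 and Cdc42se2 among the latter. The fit of MRL and MRL-IRAK4-KD mice alone called 1 member, Lyrm7. No share of all genes is given for the fits without 1 mouse, the fit of 2 groups or calls in at least 1 comparison. Whether these counts changed more in the stretch than elsewhere was not tested.

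A second description counts members for which no mutant mouse overlapped an intact mouse. This held for 16 members in the lpr comparison (5.26% of all genes) and for 33 without lpr (11.2% of all genes). In both comparisons and in the same direction it held for 11 members, 7.69%, against 0.919% of all genes tested, and for 0 members in opposite directions. Among genes with a mean of at least 0.5 CPM the shares were 11.4% of 79 members and 1.55% of all such genes. The adjoining 44 to 50 Mb had 5 such genes of 89 (5.62%, or 12.8% of those with at least 0.5 CPM), and 56 to 62 Mb had 1 of 174 (0.575%). By this count the stretch did not stand apart from its proximal neighbour. Without IRAK4-KD replicate 3 the count was 12 members and 1.42% of all genes, without MRL-IRAK4-KD replicate 4 it was 17 and 1.34%, and without both it was 18 and 1.94%.

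The median log2 fold change of the 143 members was 0.02 with lpr and -0.05 without, against -0.00 and -0.01 over all genes. Since members lay in both directions, their absolute log2 fold change is also given: its median over the 79 members with at least 0.5 CPM was 0.22 with lpr and 0.11 without, against 0.20 and 0.10 over all such genes. Of the 79 members with at least 0.5 CPM, 48 (60.8%) had the same sign in both comparisons, against 53.1% of such genes overall. The 11 members without overlap were 5 that lay higher in mutant mice, namely Gm39822, Olfr1372-ps1, P4ha2, Lyrm7 and Tnip1 (0.344% of all genes), and 6 that lay lower (0.575%), namely Gdf9, Shroom1, A430108G06Rik, Slc22a4, Ccdc69 and Slc36a2.

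**Figure D2:**
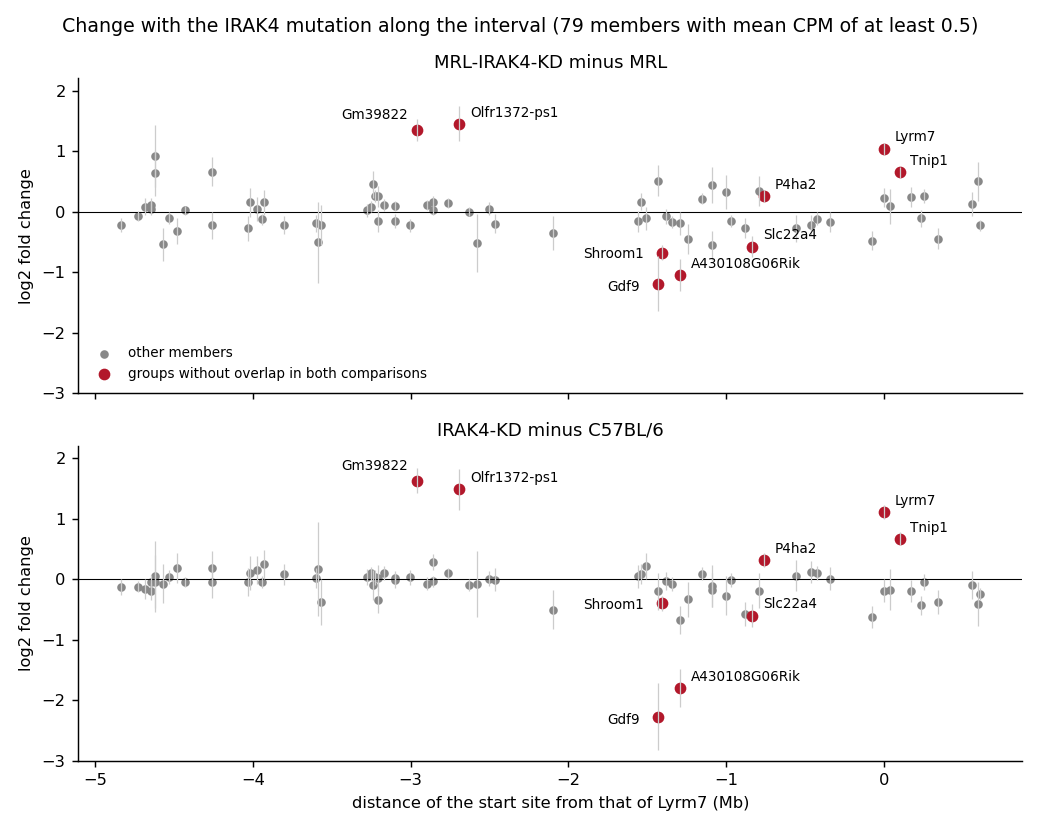
Log2 fold change with its standard error (vertical axes) of the 79 members with a mean of at least 0.5 CPM against the distance of their start site from that of Lyrm7 in Mb (horizontal axis), with lpr above and without lpr below. Red points are the 9 of these members whose mutant and intact mice did not overlap in both comparisons. Lyrm7 and Tnip1 sit beside each other near 0, Gm39822 and Olfr1372-ps1 at the proximal side are also high, and the low members fall between them.

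Along the chromosome the 11 members fell into runs of 1 direction. No member that starts between 50 and 51 Mb was among them, of 32 there. Gm39822 was the only one of 22 between 51 and 52 Mb, and Olfr1372-ps1 the only one of 15 between 52 and 53 Mb, both higher. Between 53 and 54 Mb all 4 of them, of 35 members, lay lower, and the median log2 fold change of that segment was -0.16 with lpr and -0.18 without. All 3 of 24 between 54 and 55 Mb lay higher, and both of 15 between 55 and 56 Mb lower. The median was 0.10 with lpr and -0.18 without between 54 and 55 Mb, and 0.12 and -0.37 between 55 and 56 Mb. In these segments the medians thus did not follow the runs in both comparisons. No member starts beyond the gene for the glycine receptor subunit Glra1.

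**Figure D3:**
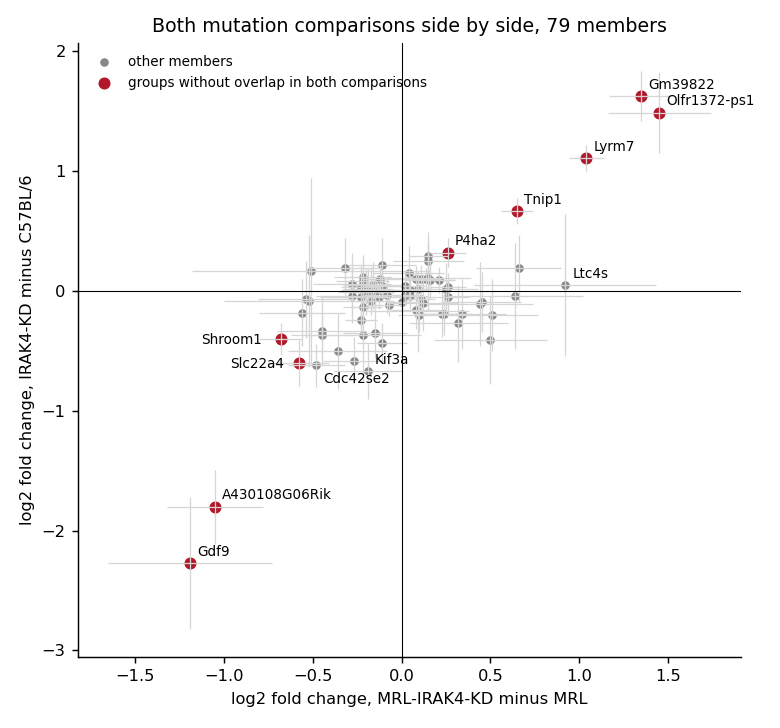
Log2 fold change of the 79 members with at least 0.5 CPM in the lpr background (horizontal axis) and without lpr (vertical axis), with bars for the standard error. Red points mark the 9 members without overlap between groups in both comparisons. They lie along the diagonal at both ends, from Gdf9 (-1.19 and -2.27) to Gm39822 (1.35 and 1.63), and most grey points cluster near 0.

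Gm39822 (ENSMUSG00000110618.1, plus strand, 51898966 to 51909624) is a long intergenic RNA gene. It had 2.06, 2.13, 2.99 and 2.50 CPM in MRL mice, 5.14, 6.97, 7.56 and 4.93 CPM in MRL-IRAK4-KD mice, 2.1, 2.59 and 2.83 CPM in C57BL/6 mice, and 8.40, 7.76 and 7.07 CPM in IRAK4-KD mice. The groups stood well apart in both backgrounds. Its difference was 2.54-fold with lpr (log2 1.35, standard error 0.18) and 3.09-fold without (log2 1.63, standard error 0.21). Its 2 RefSeq promoter windows, which end at 51897361 and 51898368 before its annotated start, held none of the motifs searched. No gene with at least 10 counts overlaps it, and annotated genes below that sum were not checked for overlap.

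Olfr1372-ps1 (ENSMUSG00000108218.2, minus strand, 52154722 to 52168159) is a transcribed olfactory receptor pseudogene whose start lies 269 kb from that of Gm39822. It had 0.378, 0.553, 0.589 and 0.700 CPM in MRL mice and 1.17, 2.07, 1.91 and 0.898 CPM in MRL-IRAK4-KD mice. C57BL/6 mice had 0.609, 0.734 and 0.410 CPM, and IRAK4-KD mice 1.55, 1.84 and 1.53 CPM. It lay higher in every mutant mouse, by 2.72-fold with lpr (log2 1.45, standard error 0.29) and 2.81-fold without (log2 1.49, standard error 0.34). It was not called by edgeR and was called by DESeq2 and limma-voom in both comparisons. Without MRL-IRAK4-KD replicate 4 edgeR called it in both comparisons too, with log2 fold changes of 1.62 and 1.49. Its whole length overlaps the lincRNA gene Gm26551 on the same strand, which had 473 counts in all against 6335, so that the split of reads between them is uncertain.

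P4ha2, a prolyl hydroxylase subunit gene for collagen, was also higher in mutant mice. It had 11.6, 11.8, 14.2 and 15.3 CPM in MRL against 16.3, 15.4, 15.4 and 16.3 CPM in MRL-IRAK4-KD mice, and 12.5, 14.3 and 14.4 against 17.9, 17.0 and 16.5 CPM without lpr. The gap between the highest MRL and the lowest MRL-IRAK4-KD mouse was narrow, and the log2 fold changes were 0.26 and 0.32 (standard errors 0.10 and 0.12).

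Of the members that lay lower, Shroom1 (ENSMUSG00000018387.12, plus strand, 53457205 to 53467766), a gene of the Shroom family of actin-binding proteins, was called in the lpr background. Its levels were 8, 7.57, 7.11 and 7.45 CPM in MRL mice, with 5.39, 4.49, 3.95 and 4.91 CPM in MRL-IRAK4-KD mice. C57BL/6 mice had 5.39, 5.23 and 5.02 CPM and IRAK4-KD mice 3.7, 4.15 and 4 CPM. Its mutant mice were lower in both backgrounds, by 1.61-fold (log2 fold change -0.68, standard error 0.12) and 1.32-fold (-0.40, standard error 0.13). The call in the lpr background held without MRL-IRAK4-KD replicate 4 and was lost without IRAK4-KD replicate 3. The retained-intron transcript Shroom1-205 took 44.7% to 58.1% of its counts over the groups, and 1235 bases are shared with the antisense gene Gm12212.

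Gdf9, which encodes an oocyte-secreted growth factor of the TGF-beta family, is a low-abundance transcript here. MRL mice had 1.19, 0.984, 0.834 and 0.882 CPM, and MRL-IRAK4-KD mice 0.671, 0.140, 0.170 and 0.728 CPM. C57BL/6 mice had 0.717, 0.880 and 1.01 CPM and IRAK4-KD mice 0.141, 0.245 and 0.155 CPM. Within MRL-IRAK4-KD mice 2 values lay close to the MRL range and 2 close to the IRAK4-KD range. Log2 fold changes were -1.19 (standard error 0.46) and -2.27 (standard error 0.55). It was not called by edgeR, whereas limma-voom called it with lpr, and DESeq2 and the edgeR fit of the 2 groups alone called it without lpr. Its start lies 192 bases from that of Uqcrq, a complex III subunit gene on the other strand, whose log2 fold changes were 0.51 and -0.20 (standard errors 0.26 and 0.30). Without MRL-IRAK4-KD replicate 4 the first of these was 0.05.

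A430108G06Rik, a processed transcript, starts 66 bases from Kif3a, the kinesin-II motor gene, and runs the other way. It had 1.19, 1.03, 1.36 and 1.42 CPM in MRL mice, with 0.636, 0.564, 0.363 and 0.850 CPM in MRL-IRAK4-KD mice. C57BL/6 mice had 0.939, 1.17 and 1.20 CPM and IRAK4-KD mice 0.434, 0.278 and 0.240 CPM. It lay lower in all mutant mice, by 2.07-fold with lpr (log2 -1.05, standard error 0.27) and 3.47-fold without (log2 -1.80, standard error 0.31), and its call without lpr was lost without IRAK4-KD replicate 3 (-1.63). Kif3a had 139, 140, 131 and 132 CPM in MRL and 114, 88.5, 85.3 and 188 CPM in MRL-IRAK4-KD mice, so that only replicate 4 exceeded the MRL mice. Its log2 fold change with lpr was -0.19 (standard error 0.19), and -0.50 without that mouse. Without lpr Kif3a had 131, 150 and 143 CPM in C57BL/6 and 81.7, 88.1 and 96.0 CPM in IRAK4-KD mice (log2 fold change -0.67, standard error 0.23).

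The 4 solute carrier genes with at least 0.5 CPM had log2 fold changes of -0.58 to -0.15 with lpr and -0.60 to -0.01 without. Of all 6, 2 did not overlap in both comparisons, beside 0.919% of all genes, and edgeR called 0 in either, beside 0.0972% with lpr and 0.147% without. DESeq2 called Slc36a2 without lpr, beside 0.576% of all genes. By limma-voom Slc36a2 was called in both and Slc22a4 without lpr, beside 0.559% of all genes with lpr and 0.381% without. Slc22a4, which encodes the ergothioneine transporter OCTN1, had 6.22, 6.61, 5.78 and 6.83 CPM in MRL mice, with 5.09, 4.28, 5 and 2.68 CPM in MRL-IRAK4-KD mice. C57BL/6 mice had 7.33, 7.48 and 7 CPM and IRAK4-KD mice 4.82, 4.88 and 4.72 CPM. The log2 fold changes of Slc22a4 were -0.58 and -0.60 (standard errors 0.17 and 0.19), and -0.41 in the lpr background without MRL-IRAK4-KD replicate 4. Slc36a2, a proton-coupled amino acid transporter gene, had 0.382 to 0.527 CPM in MRL mice, 0.0281 to 0.303 CPM in MRL-IRAK4-KD mice, 0.357 to 0.543 CPM in C57BL/6 and 0 to 0.0669 CPM in IRAK4-KD mice. At such levels the size of its difference is poorly determined (log2 -1.71 and -3.92, standard errors 0.76 and 0.99). Slc36a1, which encodes a related transporter of lysosomes, had log2 fold changes of -0.45 and -0.37, with groups that overlapped in the lpr comparison.

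Cdc42se2, a small Cdc42 effector gene directly next to Lyrm7, with starts 73.2 kb apart, lay in the opposite direction. It had 195, 154, 163 and 158 CPM in MRL and 159, 115, 124 and 81.4 CPM in MRL-IRAK4-KD mice, which overlapped. Without lpr it had 170, 164 and 189 CPM in C57BL/6 and 112, 111 and 118 CPM in IRAK4-KD mice, which did not. Log2 fold changes were -0.48 (standard error 0.16) and -0.62 (standard error 0.18). The other near neighbours of Lyrm7 and Tnip1 were Fnip1, Rapgef6, Hint1, Gpx3, Anxa6, Gm2a and the pseudogene Gm12231, with log2 fold changes between -0.17 and 0.26 in the lpr background and between -0.43 and 0.10 without lpr. Without MRL-IRAK4-KD replicate 4 those of Hint1 and Anxa6 with lpr were -0.03 and 0.01, in place of 0.23 and 0.24. The antioxidant gene Gpx3 ends 408 bases from Tnip1 and had 0.09 and -0.17 (standard errors 0.29 and 0.34). The larger differences of Lyrm7 and Tnip1 thus alternated with genes of small or opposite difference.

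At the proximal end, the ubiquitin ligase gene Rnf130 and Mir340, the first members inside 50 Mb, had log2 fold changes of -0.22 and -0.83 with lpr and -0.13 and -0.45 without, Mir340 on 56 counts in all. Just outside lay Mapk9, at -0.25 and -0.10, and Rasgef1c, at -1.74 and -1.18 (standard errors 0.51 and 0.59). At the distal end, the stress granule gene G3bp1 had -0.23 and -0.24 and Glra1 -0.77 and -2.06, while Nmur2, outside, had -1.44 and -1.35 (standard errors 0.55 and 0.63). The antisense gene Gm12239, also outside, had 52 counts in all, too few for a fold change.

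By function, 8 lists of members were compared, with edgeR calling 0.0972% of all genes with lpr and 0.147% without. DESeq2 called 1.30% and 0.576% of all genes, and limma-voom 0.559% and 0.381%. An edgeR unadjusted p below 0.05 was found for 11.4% and 3.80% of all genes. The lists are loose, and some genes are in more than 1. Tnip1 in the neuronal, Shroom1 in the ubiquitin and Gdf9 in the extracellular matrix list are not covered by the list's name. In the cytokine cluster and immune list edgeR called 0 of 9 genes in either mutant comparison, with 3 and 0 at an unadjusted p below 0.05, limma-voom called 0, and DESeq2 called Leap2 with lpr. Its median log2 fold change was -0.45 with lpr and -0.08 without, and -0.21 with lpr when MRL-IRAK4-KD replicate 4 was left out. In it, Irf1 had -0.56 and -0.18 (standard errors 0.24 and 0.28) and Il4 -0.45 and -0.33 (0.25 and 0.29). Without that mouse Irf1 and Il4 had -0.40 and -0.21 with lpr. Rad50, a DNA repair gene, had 0.21 and 0.09 (0.09 and 0.11).

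In the mitochondrial, redox and lipid list edgeR called 1 of 14 in each comparison, Lyrm7, and limma-voom also Slc22a4 without lpr. Vdac1, the outer membrane channel gene, had 0.05 and 0.01. In the ubiquitin, autophagy and kinase list edgeR called 2 of 19 with lpr, Tnip1 and Shroom1, and 1 without, Tnip1, which was lost without IRAK4-KD replicate 3. The autophagy receptor gene Sqstm1 had 0.10 and -0.20, and -0.05 with lpr without MRL-IRAK4-KD replicate 4. Tnip1 was counted again as the 1 gene of 6 called by edgeR in the neuronal and cytoskeletal list. There limma-voom called Kif3a as well in both comparisons. In the list of 9 extracellular matrix genes edgeR called 0 in each comparison. An edgeR unadjusted p below 0.05 was found for 3 and 3 of them, beside 11.4% and 3.80% of all genes. In this list limma-voom called Gdf9 and Fstl4 with lpr and DESeq2 called Gdf9 without. The lists of 6 secretory genes and 13 RNA-binding and zinc finger genes had 0 called by edgeR, DESeq2 or limma-voom.

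The 4 MRL-IRAK4-KD mice did not sit at the same level for the members that stood out. Replicates 1 and 4 were the 2 nearest to the MRL mean for 8 of the 11 members without overlap, namely Lyrm7, Tnip1, Gm39822, Olfr1372-ps1, Shroom1, A430108G06Rik, Gdf9 and Slc36a2. For the 339 other genes of the genome without overlap in both comparisons, those 2 mice were the nearest for 18, or 5.31%, and replicates 2 and 3 for 113, or 33.3%. This count was made after the values were seen and is a description of 4 mice. Replicate 4 is the library that stood apart, and replicate 1 is not. The IRAK4-KD mice showed no such spread for Lyrm7, with 29.8 to 31.7 CPM, or for Gdf9, with 0.141 to 0.245 CPM.

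**Figure D4:**
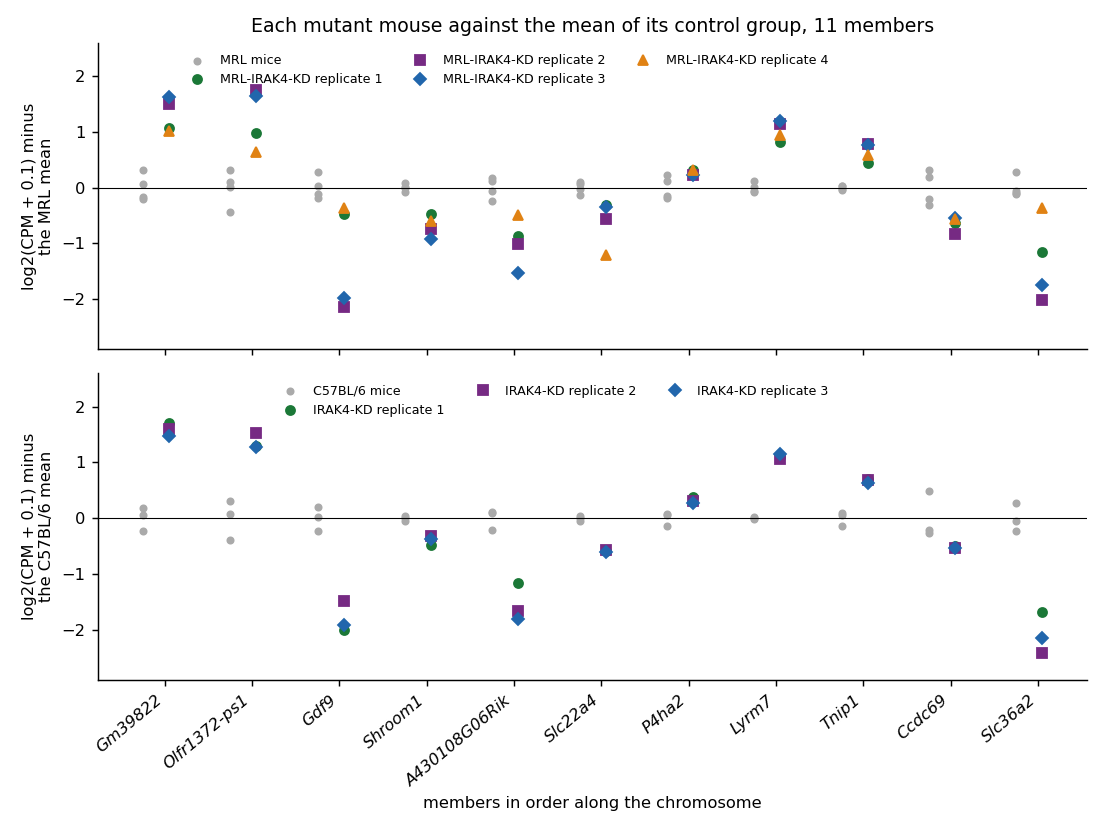
Level of the 11 members without overlap in both comparisons (horizontal axis, in order along the chromosome) as log2(CPM + 0.1) minus the mean of the control group (vertical axes), with lpr above and without lpr below. Grey points are control mice and coloured symbols single mutant mice. MRL-IRAK4-KD replicates 1 and 4 lie nearest to the MRL mean for 8 of the 11 members, for example Gdf9 and Olfr1372-ps1.

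Whether the lpr background itself moves these genes was tested with the contrast of both lpr groups against both non-lpr groups, which did not enter the choice of the stretch. With edgeR 0 of 143 members passed an adjusted p of 0.05, also without IRAK4-KD replicate 3, beside 0.0657% of all genes (25 genes), and 14 members had an unadjusted p below 0.05, beside 10.2% of all genes. DESeq2 called 1 member, beside 2.71% of all genes, and limma-voom 0, beside 1.36%. Lyrm7 had a log2 difference of -0.10 (standard error 0.07, edgeR adjusted p = 0.663), Tnip1 of -0.07 (0.07, adjusted p = 0.774) and Gm39822 of -0.19 (0.13, adjusted p = 0.656). The lowest adjusted p was that of Shroom1, at 0.161, with a log2 difference of 0.39 (standard error 0.09), higher in lpr mice. The member called by DESeq2 was Shroom1. In simulated counts 33.8% of DESeq2's calls in this contrast were false. Those counts used edgeR's own estimates of spread, so this share cannot weigh a single call. The edgeR fit without MRL-IRAK4-KD replicate 4 also called Shroom1, with a difference of 0.38. In MRL against C57BL/6 mice Shroom1 differed by 0.53 (standard error 0.13, edgeR adjusted p = 0.558) and in MRL-IRAK4-KD against IRAK4-KD mice by 0.25 (standard error 0.13, edgeR adjusted p = 0.553). A430108G06Rik had 0.56 (standard error 0.20, edgeR adjusted p = 0.382).

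Partners of Tnip1 and Lyrm7 elsewhere in the genome were read from 4 lists. Of 29 genes for NF-kB regulation by ABIN1 and A20, 0 were called by edgeR in either mutant comparison, and 1 and 0 had an unadjusted p below 0.05, as did 11.4% and 3.80% of all genes. The A20 gene Tnfaip3 had log2 fold changes of -0.19 and -0.33 (standard errors 0.36 and 0.42), with 0.13 in the first without MRL-IRAK4-KD replicate 4, and Tnip2 of 0.10 and 0.01 (0.11 and 0.13). Of 14 genes of complex III and its assembly, 0 were called in either, with 4 and 0 at an unadjusted p below 0.05, and the median was 0.32 with lpr and -0.02 without. With lpr this went with MRL-IRAK4-KD replicate 4, where Uqcr11, Uqcr10 and Uqcc2 had 166, 174 and 87.2 CPM against 47.3 to 57.6, 60.4 to 72.8 and 38.0 to 40.2 CPM in the other mice of the group. Without it the median was 0.11 and 1 gene had such a p. Uqcrfs1, the Rieske protein gene that Lyrm7 serves, had 0.16 and -0.00 (standard errors 0.11 and 0.13), and 0.23 with lpr without that mouse. The LYR-motif list of 15 genes also holds genes outside the family, namely Iscu, Isca1, Nfs1, Hscb and Sdhaf4. In this list 0 were called in either, with 5 and 0 at an unadjusted p below 0.05, Sdhaf4 and Iscu among the 5. With lpr, 2 had such a p when MRL-IRAK4-KD replicate 4 was left out. DESeq2 and limma-voom also called 0 in these 3 lists.

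The list of 19 NF-kB and interferon target genes outside the stretch also had 0 called by edgeR in each mutant comparison. With lpr DESeq2 called 7, beside 1.30% of all genes, and limma-voom 1 (Irf7), beside 0.559%. Its 16 genes at an edgeR unadjusted p below 0.05 with lpr, beside 11.4% of all genes, all lay lower in MRL-IRAK4-KD mice. Without lpr 0 had such a p, beside 3.80% of all genes. The list median was -0.92 with lpr and -0.33 without, and -0.96 with lpr without MRL-IRAK4-KD replicate 4. Irf7, the interferon regulatory factor gene, had the lowest p of the list, with -1.07 with lpr (standard error 0.24, edgeR adjusted p = 0.246) and -0.52 without (0.28, adjusted p = 1.000). In the lpr contrast Irf7 rose by 1.32 (standard error 0.19, edgeR adjusted p = 0.0276), the 1 call of the list. That call was lost without MRL replicate 2 and without any 1 of the C57BL/6 or IRAK4-KD mice. Whether a list differs between backgrounds was not tested.

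Marker genes of endothelium and pericytes were lower in the mutant groups. Their 11 genes summed to 340 to 477 CPM in MRL mice and 266 to 309 CPM in MRL-IRAK4-KD mice, and to 249 to 301 CPM in C57BL/6 and 188 to 215 CPM in IRAK4-KD mice. The groups did not overlap in either background, 1 of the 11 genes was called with lpr and 0 without, and none was at 0 counts. Hippocampal neuron markers (1170 to 1500 against 1550 to 1950 CPM) and pituitary markers (489 to 587 against 617 to 684 CPM) were higher without overlap in IRAK4-KD than in C57BL/6 mice. In whole tissue, fewer cells of a type and less RNA per cell cannot be told apart, and the part of these markers in the values above was not tested.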

How the data were processed

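Hippocampal RNA of 14 mice in 4 groups was sequenced. According to the submitters' processing notes, the authors worked on mm10 with HISAT2 2.1.0, SAMtools 1.9 and StringTie 2.1.0, and deposited raw counts per gene and per transcript as whole numbers, which StringTie derives from estimated coverage. The annotation and any use of strand are not given in the sources used here, and all 55536 Ensembl rows matched GENCODE M21. The labels and the study's methods name different library kits. Rows for predicted tRNAs (26248) and spike-ins (97) were left out, with 0.0254% to 0.188% of the counts.

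Genes with at least 10 summed counts (38070) were fitted with edgeR 4.0.16 (quasi-likelihood, TMM, robust, 1 mean per group over all 14 libraries) in R 4.3.3, with Benjamini-Hochberg adjustment over all genes and a threshold of 0.05. CPM are counts scaled to TMM effective library sizes. "Called" means below that threshold. The adjoining 6 Mb on each side, 1-Mb segments, gene lists, DESeq2 1.42.0, limma-voom 3.58.1, other scalings and filters, a replicate block, fits of 2 groups, fits without each mouse, and the scales log2(CPM + 0.1) and log2(CPM + 1) were compared. In simulated data over 38070 genes, 200 genes with a mean above 1 CPM were changed, by a log2 fold change of 1 or 2 in either direction. Of these edgeR recovered 81.5%, 65.0% and 88.0% in the lpr mutant, non-lpr mutant and lpr contrasts, and 3.30% to 5.11% of its calls were false. Recovery of genes at lower levels or with smaller changes was not simulated. Of DESeq2's calls 29.5%, 32.3% and 33.8% were false, and of limma-voom's 2.21% to 5.17%. The simulated counts used edgeR's own estimates of spread, alike in all 14 libraries. These shares may therefore not hold for the deposited counts, where MRL-IRAK4-KD replicate 4 stood apart.

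Named members were Lyrm7 and Tnip1, those called in a mutant comparison, the 10 with the largest change of the same sign in both, those at each bound, and the 3 expressed neighbours on each side of Lyrm7 and Tnip1. Others named were chosen after their values were seen: the remaining members without overlap between groups, genes whose starts adjoin a named one, and list examples. The members, the lists and the tests were chosen with earlier results of these data known. The replicate numbers were not used to pair mice in the main fit. Correlations of same-numbered deviations over 16104 genes ran from -0.0939 to 0.283. Mice of different numbers were not compared, so these values cannot decide whether the numbers pair mice.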

Additional observations from a re-analysis of the deposited data

Results flagged for a closer look

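Of 42 groups of 4 mice examined (21 named members in MRL and MRL-IRAK4-KD mice), 6 held 1 mouse far from the other 3 by Dixon's ratio and chance alone gives about 1 in 20. MRL-IRAK4-KD replicate 4 accounted for 4 of them. Its Hint1 level was 142 CPM against 78.8 to 82.2 in the other mice of the group, and its Anxa6 level was 144 CPM against 82.5 to 89.8. Its Rapgef6 level, 23.9 CPM, was low against 42.4 to 44. Its Glra1 level was 0.486 CPM against 0.0230 to 0.0926. Among MRL mice, Glra1 was 0.607 CPM in replicate 2 against 0.136 to 0.193, and Anxa6 was 103 CPM in replicate 1 against 76.6 to 80.9. None of the 6 concerned Lyrm7, Tnip1 or Gm39822.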

How the results depend on the processing

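No value changed sign where it was called. In the lpr background DESeq2 called 7 members, limma-voom 11, the fit of the 2 groups alone 1 (Lyrm7), and fits without 1 mouse 2 to 5, against 4. Without lpr, DESeq2 called 8, limma-voom 9, the 2-group fit 8, and fits without 1 mouse 2 to 8, against 4, with 8 when MRL-IRAK4-KD replicate 4 was left out and 2 without IRAK4-KD replicate 3. The median log2 fold change with lpr was -0.086 by limma-voom, -0.044 with the replicate block and -0.066 to 0.022 without 1 mouse, and without lpr -0.085 to -0.024 without 1 mouse. In the lpr contrast, DESeq2 called 1 member, fits without 1 mouse 0 to 1, and the median was -0.090 with library size scaling alone and -0.056 to -0.015 without 1 mouse. The pathway lists had 7 calls by DESeq2 and 1 by limma-voom with lpr (0 by edgeR), 0 to 0 without 1 mouse in both mutant comparisons, and in the lpr contrast 6 by DESeq2, 2 by limma-voom, 0 with the replicate block and 0 to 2 without 1 mouse, against 1. Members without overlap numbered 11 to 18 with mice left out. These counts, and the gene lists without MRL-IRAK4-KD replicate 4 or IRAK4-KD replicate 3, were added after seeing the data. Whether the replicate numbers pair mice was not decided, and with the number as a block 3 members (Lyrm7, Tnip1 and Gm39822) were called in each mutant comparison. The causes of these shifts were not tested, and no share of all genes called is given for the fits without 1 mouse or of 2 groups. Counts were not limiting for Lyrm7 and Tnip1, but members near 0.01 CPM rest on few counts, and a count may not stand for a single read.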

Other observations

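Several members moved with MRL-IRAK4-KD replicate 4 alone. The complex III subunit gene Uqcrq had 141 CPM in that mouse and 52.4 to 61.2 CPM in the other MRL-IRAK4-KD mice, and the copper chaperone gene Atox1 had 38.7 CPM against 10.4 to 14.7. Il4 was lowest there, at 1.81 CPM against 4.48 to 5.73, and Irf1 had 4.46 CPM against 7.59 to 8.32. The same mouse had the highest choroid plexus markers, and their part in these values was not tested.

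Other members, chosen after their values were seen, had groups without overlap in 1 background alone. The difference between the mutant comparisons was fitted with edgeR for every gene. It called 0 of 143 members, beside 0.00263% of all genes. An unadjusted p below 0.05 was found for 5 members, beside 4.17% of all genes. This does not show that the differences were equal in both backgrounds. Leap2, which encodes a ghrelin receptor ligand, did not overlap between MRL (0.0523 to 0.0648 CPM) and MRL-IRAK4-KD mice (0.112 to 0.190 CPM), at levels of few counts. Gm2a, the GM2 activator gene, did not overlap between C57BL/6 (61.8 to 63.7 CPM) and IRAK4-KD mice (43.8 to 52.1 CPM), where its log2 fold change was -0.43 (0.16). Its MRL-IRAK4-KD mice had 66.0, 51.6, 51.8 and 85.5 CPM against 67.7 to 69.5 CPM in MRL mice, so that only replicate 4 exceeded them. The log2 fold change of Gm2a with lpr was -0.11 (0.14), and -0.29 (0.09) without that mouse, the same direction as without lpr.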
